A study of Mus musculus with 6 samples.

Results

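Genes of skeletal muscle fibers were examined in RNA from mammary tumors of mice. The set holds 38 genes of the 55385 in the tables, chosen by symbol, and each of the 38 was found once. They comprise 10 fast-fiber and 7 slow-fiber contractile genes, 8 other sarcomere genes, most of them used by both fiber kinds, 5 genes of calcium handling, 6 of energy supply, and 2 ubiquitin ligases of muscle atrophy.

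The mice were NeuT/ATTAC females, which carry a rat ErbB2[V664E] oncogene driven in mammary epithelium by the MMTV promoter, and a caspase-8 fusion (FKBPv-caspase-8) driven in fat cells by the FABP4 promoter. The drug AP20187 dimerizes the fusion and removes part of the mammary fat. Injections of AP20187 (0.4 mg/kg) began when the mice were 6 weeks old. The treated group alone received DMHCA, an agonist of the sterol receptor LXR, as 0.05% of the diet (about 100 mg/kg), starting at 8 weeks. There were 3 Control and 3 DMHCA libraries. The labels give the treatment of the controls in words that can mean AP20187 in vehicle or vehicle alone, and the tissue as fibrotic mammary gland, whereas the study's text describes tumors of AP20187-treated mice, which was followed here. Expected counts, the read numbers that RSEM assigned to genes, summed to between 46358654 and 63420620 per library. DMHCA libraries 1 and 3 were nearly the same. Their biological coefficient of variation was 0.0327 and 18.2% of 13380 genes differed beyond counting error, against coefficients of 0.376 to 0.579 and 82.0% to 87.0% of genes in the other 5 pairs within a group. They were counted as 1 sample, so that 3 Control samples were set against 2 DMHCA samples. Nothing in the labels says that each library came from its own animal, and p-values measure the spread between these samples.

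A skeletal muscle fiber shortens when myosin heads pull on actin filaments, in units called sarcomeres. Calcium from the sarcoplasmic reticulum binds troponin C and opens the actin filament to myosin. Fibers are typed by their myosin heavy chain: slow fibers use Myh7 and resist fatigue, while the fast types IIa, IIx and IIb use Myh2, Myh1 and Myh4, in rising order of speed. Most contractile proteins have a fast and a slow form from separate genes. Mammary glands of the mouse lie in the fat under the skin, close to a thin sheet of fast muscle and to the body wall, so dissected mammary tissue can include muscle fibers. In bulk RNA, fewer fibers in the tissue and less RNA per fiber cannot be told apart.

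Promoter sequences of 5 genes are shown because they are the 3 fast myosins, whose levels followed different orders across libraries, and 2 classical muscle-restricted genes, Acta1 (skeletal α-actin) and Ckm (muscle creatine kinase). Each is the 250 bases before the gene's start in RefSeq, build GRCm38.p6, read 5′ to 3′ on the gene's own strand. Capitals mark matches, on either strand, to 6 motifs. These are the E-box CANNTG bound by MyoD family factors, the MCAT motif GGAATG bound by TEAD factors, the TATA box TATAAA, the MEF2 site, the CArG box bound by serum response factor, and the DR4 element of LXR (a direct repeat spaced by 4 bases). No match overlapped one of another motif. The windows are chr11:67237562-67237811 (plus strand) for Myh4, chr11:67199852-67200101 (plus) for Myh1, chr11:67170777-67171026 (plus) for Myh2, chr8:123894776-123895025 (minus) for Acta1 and chr7:19410844-19411093 (plus) for Ckm.
Myh4: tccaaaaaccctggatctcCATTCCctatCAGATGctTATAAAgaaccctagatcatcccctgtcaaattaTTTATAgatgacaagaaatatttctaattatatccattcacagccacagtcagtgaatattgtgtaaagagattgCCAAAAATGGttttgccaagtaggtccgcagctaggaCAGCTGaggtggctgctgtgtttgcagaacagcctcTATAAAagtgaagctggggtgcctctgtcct
Myh1: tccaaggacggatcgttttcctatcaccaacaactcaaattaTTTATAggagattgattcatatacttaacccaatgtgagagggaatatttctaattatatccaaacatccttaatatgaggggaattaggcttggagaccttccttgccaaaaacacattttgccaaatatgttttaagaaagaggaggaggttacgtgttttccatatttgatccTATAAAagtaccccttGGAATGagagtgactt
Myh2: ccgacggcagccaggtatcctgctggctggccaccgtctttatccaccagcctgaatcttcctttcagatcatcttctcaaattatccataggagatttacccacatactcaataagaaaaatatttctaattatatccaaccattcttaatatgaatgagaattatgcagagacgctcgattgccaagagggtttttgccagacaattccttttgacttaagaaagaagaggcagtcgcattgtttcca
Acta1: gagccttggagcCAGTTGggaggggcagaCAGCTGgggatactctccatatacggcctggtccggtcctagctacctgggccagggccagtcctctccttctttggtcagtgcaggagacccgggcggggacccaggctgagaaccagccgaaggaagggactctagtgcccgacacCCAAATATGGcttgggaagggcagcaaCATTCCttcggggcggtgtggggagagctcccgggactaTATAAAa
Ckm: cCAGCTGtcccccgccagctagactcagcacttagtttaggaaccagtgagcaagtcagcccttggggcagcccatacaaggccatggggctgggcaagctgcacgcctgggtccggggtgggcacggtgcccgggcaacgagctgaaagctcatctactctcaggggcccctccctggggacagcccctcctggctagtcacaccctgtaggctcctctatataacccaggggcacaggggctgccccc

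The Myh4 window held 1 CArG box, 2 E-boxes, 1 MCAT motif and 3 TATA boxes, that of Myh1 held 1 MCAT motif and 2 TATA boxes, and that of Myh2 held none of the 6 motifs. In the Acta1 window there were 1 CArG box, 2 E-boxes, 1 MCAT motif and 1 TATA box, and in the Ckm window 1 E-box. Promoters of 32 of the 38 genes were matched. Of these, 84.4% held an E-box (66.0% of the 27025 promoters in the table), 34.4% an MCAT motif (12.6%), 18.8% a TATA box (13.0%), 12.5% a CArG box (1.40%) and 6.25% a MEF2 site (0.518%). The DR4 element was in 0 of 32 and in 0.0111% of the promoters in the table. These matches describe letters only.

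Muscle transcripts were present in every library, and their amount differed between libraries more than between the groups. The summed level of the 38 genes, in TPM, RSEM's transcript level corrected for gene length and for depth, was 1289, 2205 and 1617 in Control libraries 1, 2 and 3, and 1771, 560 and 1916 in DMHCA libraries 1, 2 and 3. DMHCA library 2 was thus the lowest and Control library 2 the highest, 3.94-fold apart, and the group ranges overlapped. The sums made up 0.0560% to 0.220% of all TPM. By sample, the mean was 1703.5 ± 464 TPM (SD, n = 3) for Control and 1202 ± 908 TPM (SD, n = 2) for DMHCA, a log2 ratio of -0.50, which became 0.11 when DMHCA library 2 was left out. The 8 genes with the highest mean TPM, namely Tnnt3, Tnnc2, Mylpf, Acta1, Ckm, Tnni2, Myl1 and Pvalb, made up 79.0% of the summed level.

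**Figure D1:**
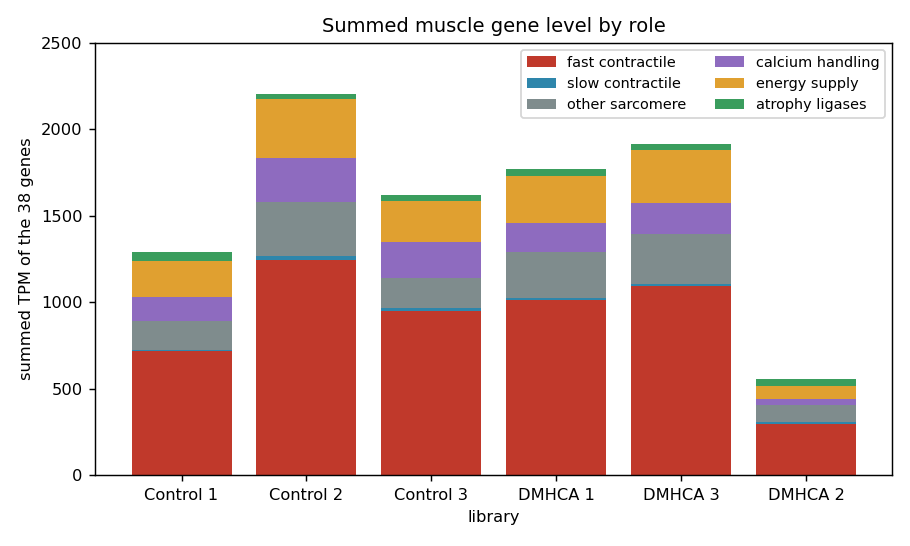
Summed TPM of the 38 genes in each library, stacked by role (bars start at 0, and DMHCA 1 and 3 stand side by side because they were counted as 1 sample). The bar of DMHCA 2 reaches 560 TPM, below every other bar, and fast contractile genes form the largest block in each library.

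Most of the 38 genes shared the low level in DMHCA library 2. Over the 5 samples, 28 genes were lowest there, whereas 12.3% of the 15124 genes with a mean of at least 1 TPM were. For 27 genes the TPM in this library was under 0.5 times the median of the other 4 samples, against 9.56% of those 15124 genes, and the median ratio over the 38 genes was 0.348 (1.19 over the 15124). Another 6 genes had ratios between 0.5 and 1. The remaining 5, at or above the median of the other samples, were Fbxo32, Tnni1, Tnnt1, Tnnc1 and Myh2. Of these, 3 encode slow troponin subunits and Myh2 encodes the slowest of the fast myosins.

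**Figure D2:**
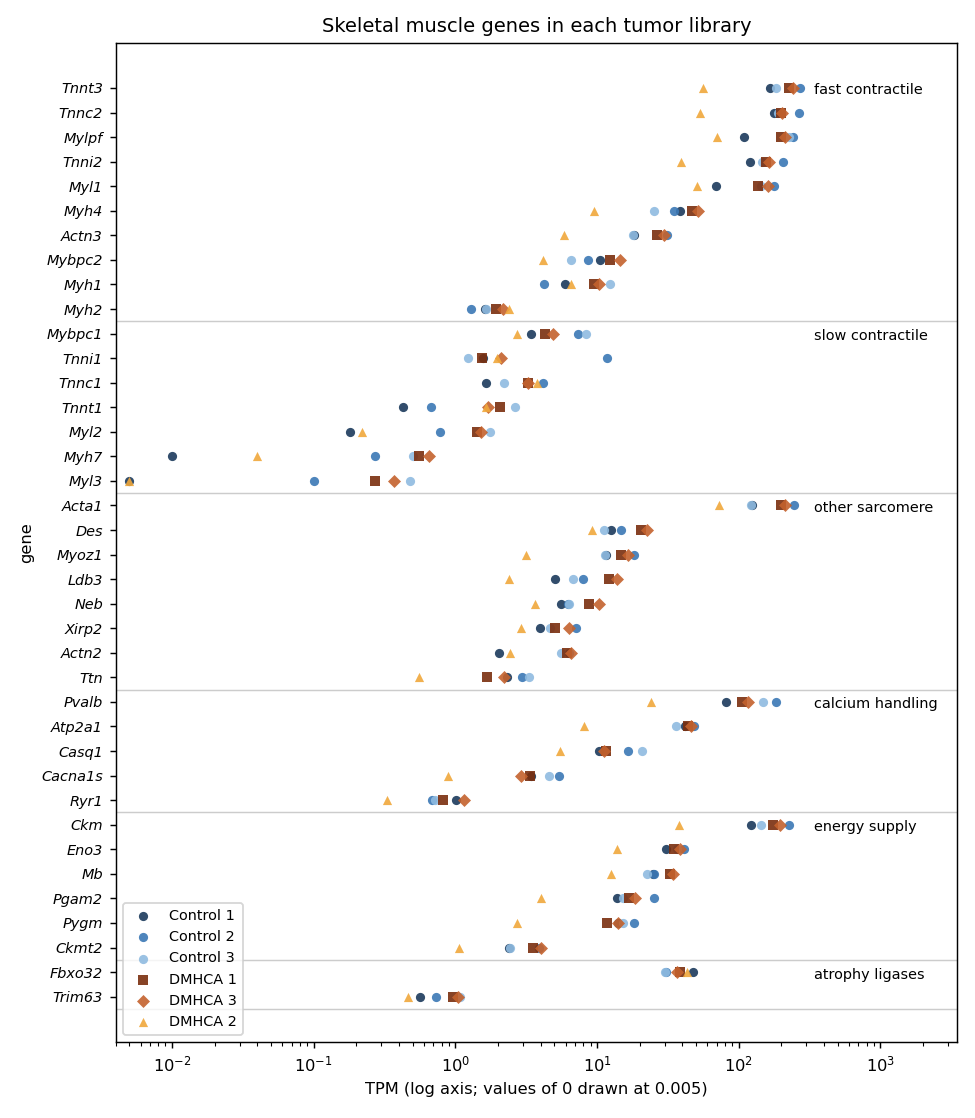
TPM of each of the 38 genes (rows, ordered by role and mean) in each library (symbols) on a log axis, with values of 0 drawn at 0.005. The triangles of DMHCA 2 lie to the left of the other symbols for 28 genes, and the 10 exceptions include Myh2, Tnni1, Tnnc1, Tnnt1 and Fbxo32.

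No gene of the set passed the test for a difference between DMHCA and Control. Of the 38 genes, 37 passed the filter on low counts (Myl3 did not), and 0 of these passed an adjusted p of 0.05 in edgeR's quasi-likelihood test, as did 0% of the 19427 genes tested. At an unadjusted p under 0.05 there were again 0 of the 37 in either direction, against 7.61% of genes tested (3.53% higher and 4.08% lower). DESeq2 called 244 genes on the 5 samples and 887 on the 6 libraries, and 0 of the muscle genes in either fit. Myl3 had no adjusted p in either fit, and Tnni1 had none on the 6 libraries, so they could not be called there. On the 5 samples 0.249% of genes were called higher and 0.967% lower, and on the 6 libraries 1.46% and 2.99%. Fitted values were lower with DMHCA for 31 of the 37 and higher for 6, where 52% of genes tested were lower, with a median log2 fold change of -0.46 against -0.03 over the genes tested. That direction rested on DMHCA library 2. Without it, which leaves 1 DMHCA sample assumed to vary like the controls, 11 of the 38 genes then tested had a lower fitted value and the median was 0.20. In normalized counts the 2 DMHCA samples were both above the 3 controls for 1 gene, Myh2 (13.8% of genes tested), and both below for 0 (12.2%).

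**Figure D3:**
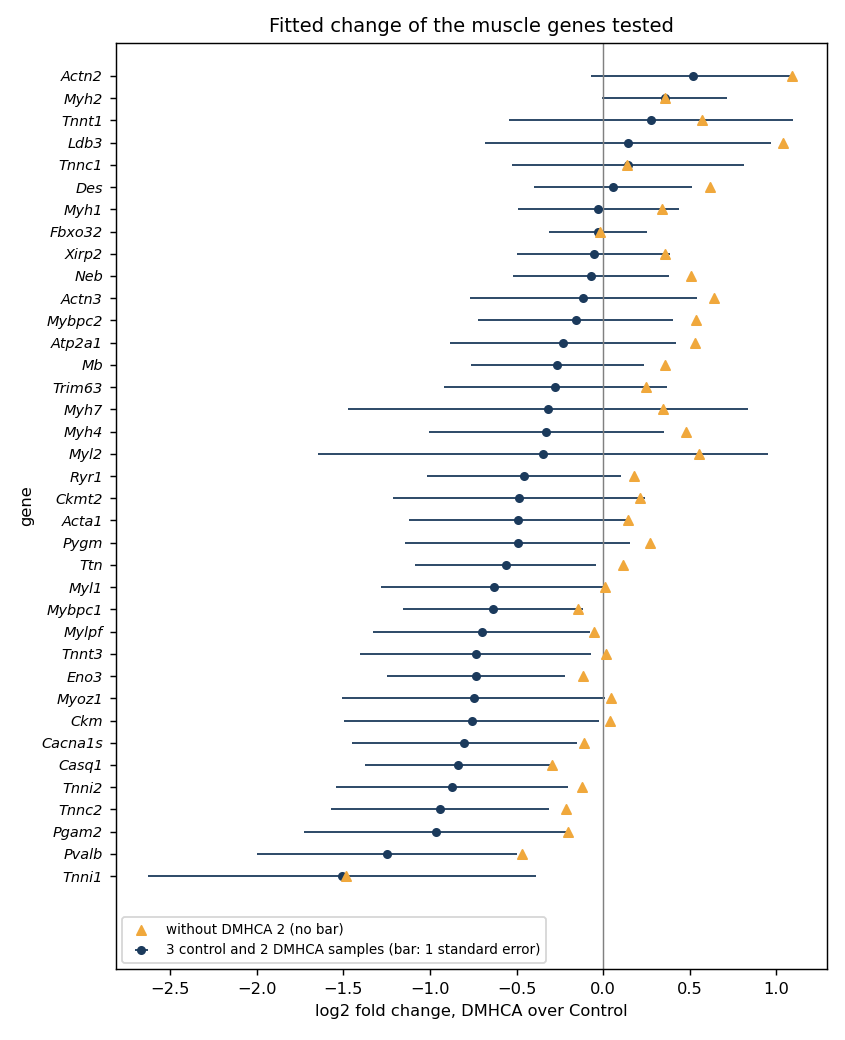
Log2 fold change of DMHCA over Control from edgeR for the 37 genes tested (circles, with bars of 1 standard error) and the same without DMHCA 2 (triangles, no bar). With DMHCA 2, 31 circles lie left of 0, and without it most triangles lie right of 0.

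Fast contractile genes carried most of the muscle signal, with 719, 1243 and 950.4 TPM in Control libraries 1 to 3 and 1013, 298 and 1092 TPM in DMHCA libraries 1 to 3. Tnnt3, fast troponin T, which ties the troponin complex to tropomyosin, was at 168, 269 and 182 TPM in Control and 226, 56.2 and 242 TPM in DMHCA. Its neighbor on chromosome 7, Tnni2 (fast troponin I, the inhibitory subunit), ran parallel at 119, 206 and 146 TPM against 156, 39.0 and 165 TPM. Tnnc2, the fast calcium-binding subunit, was at 179, 267 and 189 TPM in Control and 198, 53.2 and 203 TPM in DMHCA. For these 3 troponin genes DMHCA libraries 1 and 3 lay within the range of the controls and library 2 lay below it. The 2 fast light chains behaved alike in library 2 but were also low in Control library 1. Mylpf, the regulatory light chain, was at 109, 243 and 226 TPM in Control and 199, 70.7 and 212 TPM in DMHCA, and Myl1, the essential light chain, at 68.6, 177 and 143 TPM and 136, 51.1 and 161 TPM. The log2 fold changes were -0.74 for Tnnt3 (SE 0.67), -0.94 for Tnnc2 (SE 0.63) and -0.70 for Mylpf (SE 0.63), with a smallest adjusted p of 0.69 among the 10 fast genes in edgeR. Without DMHCA library 2 the values were 0.014 for Tnnt3, -0.22 for Tnnc2 and -0.053 for Mylpf.

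Fast genes of thick filament and Z-disc were lower in level per length. Actn3, the α-actinin of fast Z-discs, was at 18.3, 31.2 and 18.1 TPM in Control and 26.4, 5.86 and 29.8 TPM in DMHCA. Mybpc2, fast myosin-binding protein C, was at 10.6, 8.68 and 6.53 TPM in Control and 12.4, 4.13 and 14.4 TPM in DMHCA. Both were lowest in DMHCA library 2. The share of a gene in the summed muscle TPM was steadiest for Tnnt3, which made up 10.0% to 13.0% in every library (coefficient of variation 10.2% over 5 samples), followed by Ckmt2 (10.8%), Tnni2 (11.4%) and Eno3 (11.5%). It varied most for Myl3 (126%), which had few reads, and for Myh2 (90.1%), Tnnc1 (89.5%) and Tnnt1 (87.9%).

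The adult fast myosins did not keep a constant ratio. Myh2, Myh1 and Myh4 lie in this order on the plus strand of chromosome 11 within 89.4 kb (GRCm38), at chr11:67171027-67197517, chr11:67200052-67224575 and chr11:67238029-67260446. Myh4, the IIb myosin, was at 38.3, 34.8 and 25.4 TPM in Control and 46.8, 9.48 and 52.0 TPM in DMHCA. Myh1, the IIx myosin, was at 5.94, 4.26 and 12.4 TPM in Control and 9.51, 6.58 and 10.4 TPM in DMHCA. Myh2, the IIa myosin, was at 1.61, 1.29 and 1.64 TPM in Control and 1.94, 2.38 and 2.16 TPM in DMHCA. Library 2 was therefore the lowest of the 6 for Myh4, in the middle of the range for Myh1 and the highest for Myh2. In normalized counts Myh2 was 447 ± 24.7 (SD, n = 3) in Control and 573 ± 22.9 (SD, n = 2) in DMHCA, with a log2 fold change of 0.36 (SE 0.36, adjusted p = 0.78 in edgeR), and its value was singled out after it was seen. Myh4 had a log2 fold change of -0.33 (SE 0.68) and Myh1, the smallest fitted change of the set, -0.03 (SE 0.47), and without DMHCA library 2 these were 0.48 and 0.34. The order Myh4, Myh1, Myh2 held in each library. These genes are similar in sequence and their expected counts were not whole numbers in any library, so their values are uncertain. Which genes or transcripts shared the reads was not tested.

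As shares of the summed TPM of the 4 adult myosin heavy chains, Myh4 made up 83.5%, 85.7% and 63.5% in Control and 79.6%, 51.3% and 79.8% in DMHCA libraries 1 to 3. Control library 3 and DMHCA library 2 were the low ones, and the groups overlapped. By counts the Myh4 share was 51.6% in DMHCA library 2 (95% Clopper-Pearson interval 49.96% to 53.2%) and 64.1% in Control library 3 (63.1% to 65.1%), intervals that cover counting error only. Myh1 made up 31.1% in Control library 3, 35.6% in DMHCA library 2 and 10.5% to 16.2% in the others. Myh2 made up 12.9% in DMHCA library 2 and 3.18% to 4.11% in the other 5 libraries. Myh7 reached at most 1.25% by TPM and 0.476% by counts, and its effective length varied between libraries. The shares averaged 77.6% ± 12.2 (SD, n = 3) in Control and 65.5% ± 20.1 (SD, n = 2) in DMHCA for Myh4, a difference smaller than the spread between samples.

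**Figure D4:**
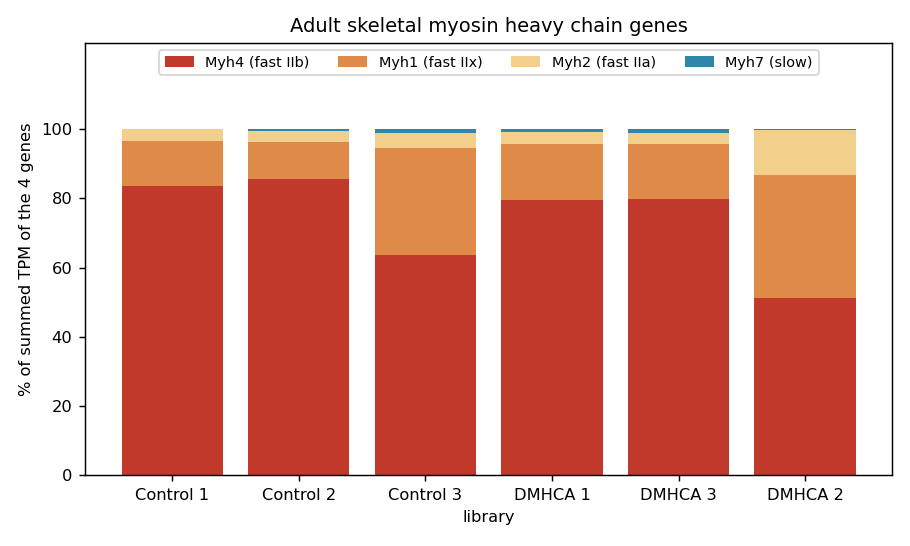
Share of each adult skeletal myosin heavy chain gene in the summed TPM of the 4, by library. Myh4 forms the largest block in each bar, from 51.3% in DMHCA 2 to 85.7% in Control 2, and the Myh2 block is 12.9% in DMHCA 2 and at most 4.11% elsewhere.

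Slow contractile genes were low, and together had 7.23, 25.1 and 17.1 TPM in Control and 13.5, 10.4 and 14.6 TPM in DMHCA libraries 1 to 3. Fast genes thus made up 99.004%, 98.0% and 98.2% of the contractile TPM in Control and 98.7%, 96.6% and 98.7% in DMHCA. The slow share was 1.58% ± 0.517 (SD, n = 3) in Control and 2.33% ± 1.44 (SD, n = 2) in DMHCA, and the difference was within the spread. Mybpc1, slow myosin-binding protein C, had the highest mean TPM of the slow genes. It was at 3.40, 7.39 and 8.37 TPM in Control and 4.33, 2.71 and 4.93 TPM in DMHCA. Its log2 fold change was -0.64 (SE 0.52), and -0.15 without DMHCA library 2. Unlike the other pairs of fast and slow forms, both forms of myosin-binding protein C made up a large share, and Mybpc2 had 43.8% to 75.6% of their TPM and 62.9% to 81.0% of their counts, where the effective length of Mybpc1 varied 1.60-fold between libraries. Mybpc1 is also used in fast fibers.

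Tnni1, slow troponin I, was at 11.7 TPM in Control library 2 (475 expected counts) and between 1.22 and 2.11 TPM in the other 5 libraries (45 to 72 counts). Its log2 fold change of -1.51 (SE 1.12, adjusted p = 0.72 in edgeR) was the largest of the set and rested on that library, since it was 0.40 without it. Tnnc1, the troponin C of slow fibers and heart, was at 1.64, 4.13 and 2.19 TPM in Control and 3.27, 3.78 and 3.28 TPM in DMHCA, with a log2 fold change of 0.14 (SE 0.67), which was -0.19 without Control library 1. Tnnt1, slow troponin T, was at 0.43, 0.67 and 2.62 TPM in Control and 2.06, 1.65 and 1.70 TPM in DMHCA, where only Control library 3 exceeded the DMHCA libraries. Neither gene was low in DMHCA library 2.

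The slow myosin Myh7 had 2, 24 and 42 expected counts in Control and 25, 8 and 32 in DMHCA libraries 1 to 3. Myl2, the slow and cardiac regulatory light chain, had 2, 22 and 34 counts in Control and 28, 2 and 28 in DMHCA. Myl3, the slow and cardiac essential light chain, had 0, 3 and 14 counts in Control and 8, 0 and 10 in DMHCA, and a count of 0 allows up to 3. By counts these 3 genes were low in both Control library 1 and DMHCA library 2 and highest in Control library 3. By TPM Myh7 was highest in DMHCA library 3.

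The 8 other sarcomere genes, of which Myoz1 is mainly a gene of fast fibers, summed to 167, 310 and 172 TPM in Control and 266, 96.9 and 290 TPM in DMHCA. Acta1, the thin filament actin, was at 124, 246 and 122 TPM in Control and 197, 72.5 and 212 TPM in DMHCA. Its log2 fold change was -0.49 (SE 0.63), and it was 0.12 without Control library 2 and 0.14 without DMHCA library 2. Des, desmin, an intermediate filament protein that smooth muscle also makes, was at 12.5, 14.9 and 11.2 TPM in Control and 20.5, 9.27 and 22.6 TPM in DMHCA, and its ratio in DMHCA library 2 to the median of the others, 0.677, was the highest of the 8. Myoz1, a calcineurin-binding Z-disc protein, was at 11.5, 18.3 and 11.4 TPM in Control and 14.7, 3.15 and 16.5 TPM in DMHCA. The log2 fold changes were 0.06 for Des (SE 0.46) and -0.75 for Myoz1 (SE 0.76). That of Des was -0.078 without Control library 3, and that of Myoz1 0.044 without DMHCA library 2. Library 2 was the lowest for each of these 3.

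The giant proteins titin (Ttn, the elastic filament) and nebulin (Neb, which lines the thin filament) were at 0.55 to 3.31 and 3.68 to 10.3 TPM, and each was lowest in DMHCA library 2. Ldb3, a Z-disc PDZ protein, was at 2.41 to 13.9 TPM, and Xirp2, an actin-binding protein, at 2.89 to 7.10 TPM. Actn2, the α-actinin of all striated muscle, was at 2.03, 6.34 and 5.60 TPM in Control and 6.16, 2.43 and 6.58 TPM in DMHCA, lowest in Control library 1. It had the largest fitted increase of the set, a log2 fold change of 0.52 (SE 0.59, adjusted p = 0.80 in edgeR). The value was 1.09 without DMHCA library 2 and -0.069 with limma on log2(TPM + 1). Its effective length varied 2.32-fold between libraries.

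Calcium handling genes gave the sharpest contrast between DMHCA library 2 and the rest, with 139, 254 and 211 TPM in Control and 165, 38.9 and 178 TPM in DMHCA. Pvalb, parvalbumin, the soluble calcium buffer of the fastest fibers, was at 81.9, 183 and 149 TPM in Control and 105, 24.2 and 117 TPM in DMHCA. Its log2 fold change was -1.25 (SE 0.75, adjusted p = 0.67 in edgeR), the smallest p of the set, and -0.47 without DMHCA library 2. Atp2a1, the SERCA1 pump that returns calcium to the reticulum of fast fibers, was at 42.1, 48.6 and 36.4 TPM in Control and 43.9, 8.04 and 46.1 TPM in DMHCA, with a log2 fold change of -0.23 (SE 0.65) that became 0.53 without DMHCA library 2 and -1.08 with limma on log2(TPM + 1). Its effective length varied 2.46-fold between libraries. For both genes the level in DMHCA library 2 was under 0.5 times that in any other library. Casq1, calsequestrin, which stores calcium in the reticulum, was at 10.3, 16.4 and 20.9 TPM in Control and 11.6, 5.44 and 11.3 TPM in DMHCA (log2 fold change -0.84, SE 0.54, and -0.30 without DMHCA library 2). The voltage sensor Cacna1s was at 0.89 to 5.35 TPM and the release channel Ryr1 at 0.33 to 1.15 TPM, and both were lowest in DMHCA library 2.

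Energy supply genes summed to 208, 342 and 235 TPM in Control and 273, 72.0 and 304 TPM in DMHCA. Ckm, which regenerates ATP from phosphocreatine, was at 122, 227 and 144 TPM in Control and 174, 37.8 and 194 TPM in DMHCA. Eno3, the muscle enolase, was at 30.8, 41.3 and 36.5 TPM in Control and 34.7, 13.7 and 38.6 TPM in DMHCA. Mb, myoglobin, the oxygen store of oxidative fibers, was at 24.9, 25.2 and 22.5 TPM in Control and 32.5, 12.6 and 34.1 TPM in DMHCA. The 3 genes were lowest in DMHCA library 2, with log2 fold changes of -0.76 for Ckm (SE 0.74), -0.74 for Eno3 (SE 0.51) and -0.26 for Mb (SE 0.50). Without that library the values for Ckm, Eno3 and Mb were 0.0395, -0.12 and 0.36. Pgam2, phosphoglycerate mutase, and Pygm, glycogen phosphorylase, were at 4.05 to 25.4 and 2.71 to 18.4 TPM, and Ckmt2, the mitochondrial creatine kinase, at 1.07 to 4.00 TPM. Each of the 6 was lowest in DMHCA library 2.

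The 2 ubiquitin ligases of muscle atrophy differed in level and pattern. Fbxo32 (atrogin-1) was at 47.8, 30.6 and 30.3 TPM in Control and 38.8, 42.9 and 36.9 TPM in DMHCA, a range of 1.58-fold, and was not low in DMHCA library 2. There it made up 7.67% of the summed muscle TPM, against 1.39% to 3.71% in the others, and 10384 of the 33080 counts of the 38 genes. Whether its reads came from muscle fibers was not tested. Trim63 (MuRF1) was at 0.56, 0.73 and 1.08 TPM in Control and 0.96, 0.46 and 1.04 TPM in DMHCA, lowest in DMHCA library 2. Their log2 fold changes were -0.03 (SE 0.28), or 0.098 without Control library 1, and -0.28 (SE 0.64), or 0.25 without DMHCA library 2.

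Of the genes of muscle formation, Myog and Myh8 were higher in each DMHCA library than in any control. Among genes tested, 13.8% had both DMHCA samples above the 3 controls. The transcription factor Myog, which drives the differentiation of myoblasts, had 5, 14 and 12 expected counts in Control and 45, 35 and 48 in DMHCA libraries 1 to 3. Myh3, the embryonic myosin, had 2, 6 and 7 counts in Control and 62, 69 and 42 in DMHCA, and Myh8, the perinatal myosin, had 47, 29 and 57 counts in Control and 131, 136 and 135 in DMHCA. For these 3 genes each DMHCA library, library 2 included, was above each Control library, at levels that stayed under 1 TPM. The log2 fold changes were 1.98 for Myog (SE 0.65) and 1.60 for Myh8 (SE 0.55), and 2.21 and 1.62 without DMHCA library 2. Neither passed the adjustment in edgeR (adjusted p = 0.64 for each), with unadjusted p-values of 0.0202 and 0.0237, in the direction that 3.53% of genes tested reached at 0.05. Without DMHCA library 2 the unadjusted p-values in edgeR were 0.052 and 0.0695, and without Control library 1 they were 0.0587 and 0.0777. In DESeq2 the adjusted p for Myog and Myh8 was 0.20 and 0.093 on the 5 samples and 0.031 and 0.010 on the 6 libraries, a fit that counts DMHCA libraries 1 and 3 separately. Myh3 had a log2 fold change of 3.57, given as a description only. It had under 10 counts in each Control library and passed the filter only through the DMHCA samples. It is therefore not set against the 13.8% of genes tested.

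The list of muscle formation genes held 10 genes, of which 4 passed the filter, and Myog, Myh3 and Myh8 are described here with their earlier results known. The other gene tested, Myf6, a regulator that mature fibers keep, was at 0.96, 1.13 and 1.25 TPM in Control and 1.39, 0.39 and 1.57 TPM in DMHCA, lowest in library 2 like the fiber genes. The satellite cell factor Pax7 had 0 to 4 counts per library and Myod1, the myoblast determination factor, 4 to 16. Myh3 and Myh8 are similar in sequence to the other myosins, so their values are uncertain.

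**Figure D5:**
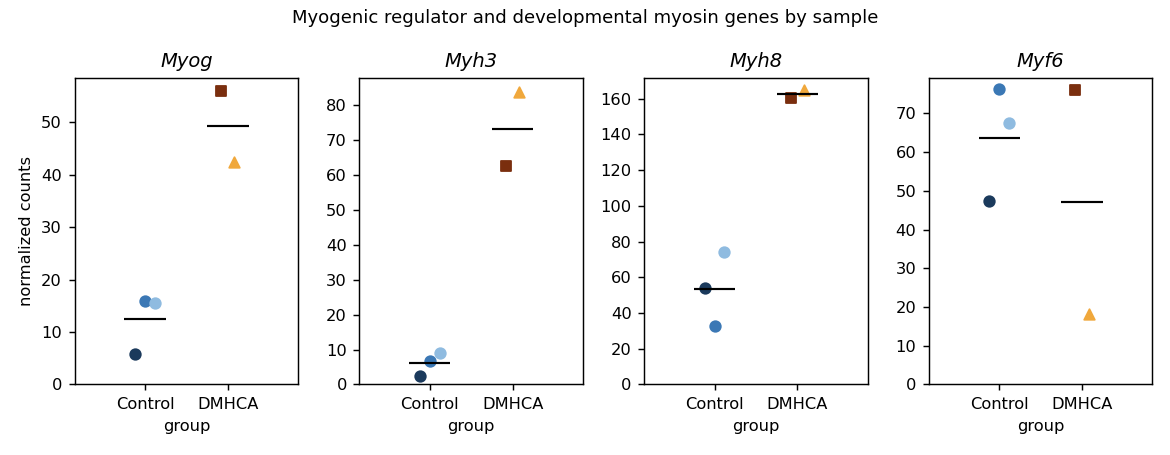
Normalized counts of Myog, Myh3, Myh8 and Myf6 in the 3 Control samples (circles), the DMHCA sample made of libraries 1 and 3 (square) and DMHCA 2 (triangle), with lines at group means and each axis from 0. Both DMHCA samples lie above the 3 controls for Myog, Myh3 and Myh8, and for Myf6 the groups overlap.

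A list of 40 other muscle genes summed to 162, 224 and 182 TPM in Control and 226, 83.9 and 238 TPM in DMHCA, again lowest in DMHCA library 2. Of 39 tested, 25 had a lower and 14 a higher fitted value, 0 had an unadjusted p under 0.05, and the median log2 fold change was -0.12. Its highest genes were the cytochrome oxidase subunits Cox7a1 (21.9 to 54.3 TPM), Cox8b (4.02 to 35.8 TPM) and Cox6a2 (4.73 to 29.3 TPM), each lowest in that library. The first 2 are also made in brown fat and are held by the brown fat list of 9 genes, which summed to 74.4, 82.3 and 100.9 TPM in Control and 91.4, 83.9 and 83.01 TPM in DMHCA. Of its 7 genes tested, 2 had lower and 5 higher fitted values, 1 of the higher at an unadjusted p under 0.05 (3.53% of genes tested). Its defining gene Ucp1 had 0 to 7 counts per library. Cidea, a lipid droplet protein, was at 39.0 TPM in DMHCA library 2 and 2.31 to 8.92 TPM in the others, and Dio2, a thyroid hormone deiodinase named after its values were seen, was at 8.28 TPM in that library and lower in each of the others.

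Heart muscle shares several slow genes with skeletal fibers. The heart genes Myh6, Ryr2, Nppa, Myl7 and Mybpc3 were at most 0.35 TPM in any library, Nppb at most 0.83 TPM and Actc1 at most 1.25 TPM. Tnni3, cardiac troponin I, was at 7.46 to 15.5 TPM, and Myl4, atrial light chain, at 2.76 to 9.78 TPM. Tnnt2, cardiac troponin T, was at 31.8, 203 and 9.21 TPM in Control and 3.57, 11.8 and 3.55 TPM in DMHCA, highest in Control library 2, the library in which Tnni1 was high. Over the 10 heart genes 4 were tested, 2 with lower and 2 with higher fitted values, and 1, Tnnt2, was lower at an unadjusted p under 0.05 (4.08% of genes tested).

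The 13 smooth muscle and myoepithelial genes summed to 251, 166 and 276 TPM in Control and 212, 269 and 214 TPM in DMHCA, and 0 of 13 had an unadjusted p under 0.05. Fitted values were lower for 11 and higher for 2, with a median log2 fold change of -0.52. Smtn, with the highest mean TPM of the list, was at 63.2, 62.3 and 23.7 TPM in Control and 45.0, 139.9 and 44.0 TPM in DMHCA. Acta2, smooth muscle actin, was at 29.3 to 61.5 TPM and Myh11, smooth muscle myosin, at 0.78 to 8.24 TPM. The 8 luminal epithelial genes, with Krt18, Epcam and Krt8 highest, summed to 4538, 4074 and 3668 TPM in Control and 5278, 5202 and 5330 TPM in DMHCA, so the mammary epithelium was well represented in each library. The 12 adipocyte genes summed to 476, 234 and 1849 TPM in Control and 168, 131 and 165 TPM in DMHCA. They had lower fitted values in 12 of 12 cases, 10 of them at an unadjusted p under 0.05 (4.08% of genes tested), with Adipoq at 4.84 to 67.3 TPM in Control and 0.73 to 1.45 TPM in DMHCA. The summed fat genes were thus lower in each of the 3 DMHCA libraries than in any control, while most of the 38 muscle genes were low in library 2 only. The part of fat, or of how tissue was cut, in the muscle levels was not tested.

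The precision of single levels was limited by gene models as well as by reads. RSEM's effective length, which enters TPM, differed by more than 1.5-fold between libraries for 11 of the 38 genes, most for Myh7 (5.35-fold), so their TPM and counts can order libraries differently. Exons of 20 of the 38 genes overlap an exon on the opposite strand in GENCODE, for example Tnnc2 with Ube2c, Atp2a1 with Rabep2 and Myl3 with Pth1r, and the sources used here do not say whether strand was used in counting.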

How the data were processed

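The study describes tumor RNA from 3 control and 3 DMHCA-treated mice. Per the labels and the study's methods, the authors checked reads with FastQC 0.11.9, trimmed with Cutadapt 2.9, and aligned and counted them with RSEM 1.3.1 on a Bowtie2 2.4.1 index of the Ensembl mouse genome (mm10). The deposited expected counts are estimated read numbers per gene without normalization. The deposited TPM values were corrected by RSEM for effective length and for depth. FPKM was not used.

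Expected counts were rounded (19.6% to 23.5% per library were not whole numbers). DMHCA libraries 1 and 3 were summed, and their TPM averaged. They met the merging rule, set on genes averaging 100 or more counts: a biological coefficient of variation under 0.1, and more than 5 times below every other pair. edgeR 4.0.16 in R 4.3.3 was run with TMM, filterByExpr (minimum count 10, minimum total 15) and quasi-likelihood F-tests, and p-values of the 19427 genes were adjusted by Benjamini-Hochberg. Standard errors are the log2 fold change over the square root of F. Alternatives used DESeq2 1.42.0, limma 3.58.1 on log2(TPM + 1), other scalings and filters, a replicate block, and each library left out. Fits were tested on simulated data.

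The 38 genes and the other lists were chosen with earlier results of these data known. Levels are given for the 38, and fold changes for the 3 with the highest mean TPM in each role, both ligases, and the largest and smallest fitted change. From each other list the 3 highest genes and defining markers could be named. Fold changes of Myh2 and Myh4, Dio2, heart genes beyond these, and the genes with extreme shares were added after values were seen. Gene coordinates are from GENCODE M21 (GRCm38), promoters from RefSeq (GRCm38.p6). Deviations from the group mean correlated at -0.06, 0.34 and 0.36 between same-numbered libraries, and at -0.39 to 0.35 between libraries of different number. Because DMHCA libraries 1 and 3 were nearly the same, this cannot settle whether libraries were paired by number. The main fit used no pairing.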

Additional observations from a re-analysis of the deposited data

How the results depend on the processing

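None of the 38 genes passed an adjusted p of 0.05 under any of the 16 alternatives, and the count of all genes that did was 244 with DESeq2 on 5 samples, 887 with DESeq2 on 6 libraries and 16 without a filter on low counts, where 1 of the 38 was lower at an unadjusted p under 0.05. With the replicate number as a block, 0 genes were called and 26 of the 37 tested had a lower fitted value. Leaving out each library gave 11 to 34 of them with a lower fitted value and a log2 ratio of summed TPM between -0.67 and 0.11. The lowest count and the highest ratio came without DMHCA library 2. Leaving out that library turned 20 of them from lower to higher fitted values and 0 the other way. Among the genes named with a fold change, 9 turned, namely Trim63, Atp2a1, Ckm, Mb, Tnnt3, Acta1, Myoz1, Myh1 and Myh4. The ranges over left-out libraries, in log2 fold change, were -0.17 to 0.10 for Fbxo32, -0.54 to 0.25 for Trim63, -0.49 to 0.53 for Atp2a1, -0.98 to 0.0395 for Ckm, -0.34 to 0.36 for Mb, -0.94 to 0.014 for Tnnt3, -0.73 to 0.14 for Acta1, -0.078 to 0.61 for Des, -0.95 to 0.044 for Myoz1, -1.96 to 0.40 for Tnni1, -0.19 to 0.81 for Tnnc1, -0.24 to 0.49 for Myh1 and -0.51 to 0.48 for Myh4. Without a change of sign they were -1.13 to -0.22 for Tnnc2, -1.03 to -0.053 for Mylpf, -0.87 to -0.15 for Mybpc1, -0.92 to -0.12 for Eno3, -1.11 to -0.30 for Casq1, -1.57 to -0.47 for Pvalb and 0.28 to 1.09 for Actn2. Other settings turned Fbxo32 (0.18 with limma), Actn2 (-0.069 with limma), Atp2a1 (0.057 with DESeq2 and 0.038 with edgeR on 6 libraries) and Myh1 (0.0091 and 0.10 with DESeq2 on 5 samples and 6 libraries, 0.068 with edgeR on 6 libraries, 0.15 with the replicate block, 0.013 without a filter and 0.21 with limma). The cause was not tested. Isoform shares by counts in place of TPM, and summed level as TMM-scaled CPM, moved by less than the spread between samples. With 2 DMHCA samples, changes of the size fitted here were within about 2 standard errors of 0 for each of the 37 muscle genes tested.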
